A study of Mus musculus with 4 samples.

Results

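The class II pathway of the major histocompatibility complex was followed through 10 genes: the chain genes H2-Aa, H2-Ab1 and H2-Eb1, the peptide-editor genes H2-DMa, H2-DMb1, H2-DMb2, H2-Oa and H2-Ob, the invariant chain gene Cd74 and the transactivator gene Ciita. They were chosen by name and matched to probe sets that carry 1 gene symbol in the platform annotation. Of the 10 genes, 9 were matched, among 17484 named genes in all. Each of the 9 had 1 probe set, so no choice between probe sets was needed. Cd74 appears in the annotation beside Mir5107 on 1 probe set, and so has no value of its own.

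The material was RNA of microglia, the resident macrophages of the brain, taken from the whole brain of C57BL/6J males and hybridised to expression arrays. The groups were OVA mice at postnatal day 70 (P70), PBS mice at P70, OVA mice at postnatal day 30 (P30) and PBS mice at P30. OVA marks the allergy group and PBS the control group, and all 4 groups had been challenged through the nose 1 day earlier. Microglia of 4 samples were pooled per group and each pool gave 1 array. There is therefore no replicate, no spread within a group and no test, and the number of arrays limits the precision of every value. How the cells were isolated, and their purity, are not given in the sources used here. In bulk RNA of this kind, a change in the number of cells of a type and a change in RNA per cell cannot be told apart.

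Class II molecules are pairs of an alpha and a beta chain that display peptides from endosomes to CD4 T cells. The chains assemble with the invariant chain, which is cut away in late endosomes, and the DM molecule then exchanges its last fragment for other peptides while the DO molecule restrains DM. CIITA, the master co-activator of these genes, is recruited to their promoters by factors bound at short elements called the X and Y boxes. Resting microglia make little class II, and macrophages at the borders of the brain, dendritic cells and B cells are known to make more.

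The promoters of these genes are shown first, searched for the X and Y boxes described above. RefSeq windows of GRCm38.p6, from 250 bases before the start to 50 bases after it, were found for 7 of the 10 genes (H2-Aa, H2-Eb1, H2-DMa, H2-DMb1, H2-DMb2, H2-Oa and H2-Ob). Not in that table are H2-Ab1, Cd74 and Ciita. The windows were searched on both strands for a Y box core, GATTGG, which is an inverted CCAAT box, and for an X box core, AGNNACNGA. All 7 genes had the Y box core in a window, against 16.1% of all 32851 windows, and 4 had the X box core, against 17.7%. An X core followed on the same strand by a Y core, with 5 to 40 bases between them, stood in 2 of the 7 genes, H2-Eb1 and H2-DMb1, and in 0.174% of all windows. The neighbouring chain gene H2-Eb2, which is not 1 of the 10, also had it. The X cores counted in H2-Oa and H2-Ob were not placed so. In H2-Oa they lay 141 bases before the start, too far from the Y core, or on the opposite strand. In H2-Ob the only X core lay on the opposite strand. The stretch around the Y box is given below for H2-Eb1 (chr17:34305747-34305832, plus strand), H2-DMb1 (chr17:34153069-34153154, plus strand), H2-Aa (chr17:34287847-34287932, minus strand), H2-DMb2 (chr17:34145098-34145183, plus strand), H2-Ob (chr17:34238787-34238872, plus strand) and H2-Eb2 (chr17:34325514-34325599, plus strand). Capitals mark the Y core and, where it preceded in that spacing, the X core.
H2-Eb1: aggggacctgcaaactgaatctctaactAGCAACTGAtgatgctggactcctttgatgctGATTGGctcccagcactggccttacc
H2-DMb1: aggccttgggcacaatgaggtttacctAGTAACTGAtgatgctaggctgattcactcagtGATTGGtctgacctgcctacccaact
H2-Aa: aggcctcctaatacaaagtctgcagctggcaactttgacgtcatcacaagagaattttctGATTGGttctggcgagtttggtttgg
H2-DMb2: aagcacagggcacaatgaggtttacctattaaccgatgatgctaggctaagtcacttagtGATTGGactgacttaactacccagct
H2-Ob: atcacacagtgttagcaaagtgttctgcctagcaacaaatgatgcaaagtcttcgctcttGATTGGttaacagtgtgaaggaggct
H2-Eb2: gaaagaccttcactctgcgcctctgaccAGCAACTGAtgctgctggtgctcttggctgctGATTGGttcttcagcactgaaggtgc

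In H2-Eb1 the Y core began 60 bases and the X core 92 bases before the start, with 23 bases between them. In H2-DMb1 they began at 62 and 95 bases, with 24 bases between. The Y core of H2-Aa began 49 bases, that of H2-Ob 58 bases, that of H2-DMb2 91 bases and that of H2-Oa 44 bases before the start. H2-DMa had its Y core 199 bases before 1 of its 2 listed starts. A match describes letters in a window and is not a measured binding site. Only the stated letters were searched, so a variant of a core was not counted. H2-DMb1 and H2-DMb2 are neighbouring copies of 1 gene with closely similar sequence, so signal may be shared between their probe sets and their separate values are uncertain.

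A level here is the log2 of the deposited intensity of a gene's probe set, and a difference is a level on 1 array minus that on another. Levels of different probe sets are not set against each other. A gene was called expressed where the mean of its 4 levels reached 7.19, the median over the named genes. That left 8742 expressed genes, with 8 of the 9 measured class II genes among them. All 8 were at or above this floor on every one of the 4 arrays, so none passed through 1 bright array alone. Ciita lay under it. The highest level on the arrays was between 19.74 and 19.93, and the highest value of any class II gene was 14.76. With no replicates, a difference was counted when it reached 1.5-fold (0.58 on the log2 scale), and counts are read against the share of all expressed genes past the same fold, printed with the class II counts.

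The chain genes varied most over the arrays. H2-Eb1, which encodes the beta chain of I-E, was at 14.40 in OVA and 12.19 in PBS at P70, and at 8.01 in OVA and 8.72 in PBS at P30. H2-Ab1, the beta chain of I-A, was at 14.76 in OVA and 13.05 in PBS at P70, and at 9.58 in OVA and 10.17 in PBS at P30. H2-Aa, the alpha chain of I-A, was at 10.71 in OVA and 9.69 in PBS at P70, and at 8.0 in OVA and 8.40 in PBS at P30. All 3 genes thus had the same order of arrays, highest in OVA at P70, then PBS at P70, then PBS at P30, and lowest in OVA at P30. The distance between the highest and the lowest array was 6.39 log2 units for H2-Eb1, 5.18 for H2-Ab1 and 2.71 for H2-Aa.

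The editor genes moved over a narrower range, between 0.89 and 1.54 log2 units. H2-DMa, the alpha chain of the peptide exchange factor, was at 11.69 in OVA and 11.41 in PBS at P70, and at 10.30 in OVA and 10.15 in PBS at P30. H2-DMb1, a beta chain of that factor, was at 10.90 in OVA and 10.14 in PBS at P70, and at 9.42 in OVA and 9.70 in PBS at P30. H2-DMb2, the other beta chain, was at 9.98 in OVA and 9.43 in PBS at P70, and at 9.10 in both OVA and PBS at P30. Of these 3 genes, H2-DMb1 alone repeated the order of arrays of the chain genes.

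The DO genes encode the alpha (H2-Oa) and beta (H2-Ob) chains of the molecule that restrains DM. H2-Oa was at 10.20 in OVA and 9.78 in PBS at P70, and at 9.01 in OVA and 8.97 in PBS at P30. H2-Ob was at 9.51 in OVA and 9.53 in PBS at P70, and at 8.68 in OVA and 8.60 in PBS at P30. Both were higher on the P70 arrays than on the P30 arrays, with little distance between the treatments for H2-Ob. Ciita stayed under the floor, at 6.94 in OVA and 6.76 in PBS at P70 and at 6.93 in OVA and 6.93 in PBS at P30, a range of 0.18.

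**Figure D1:**
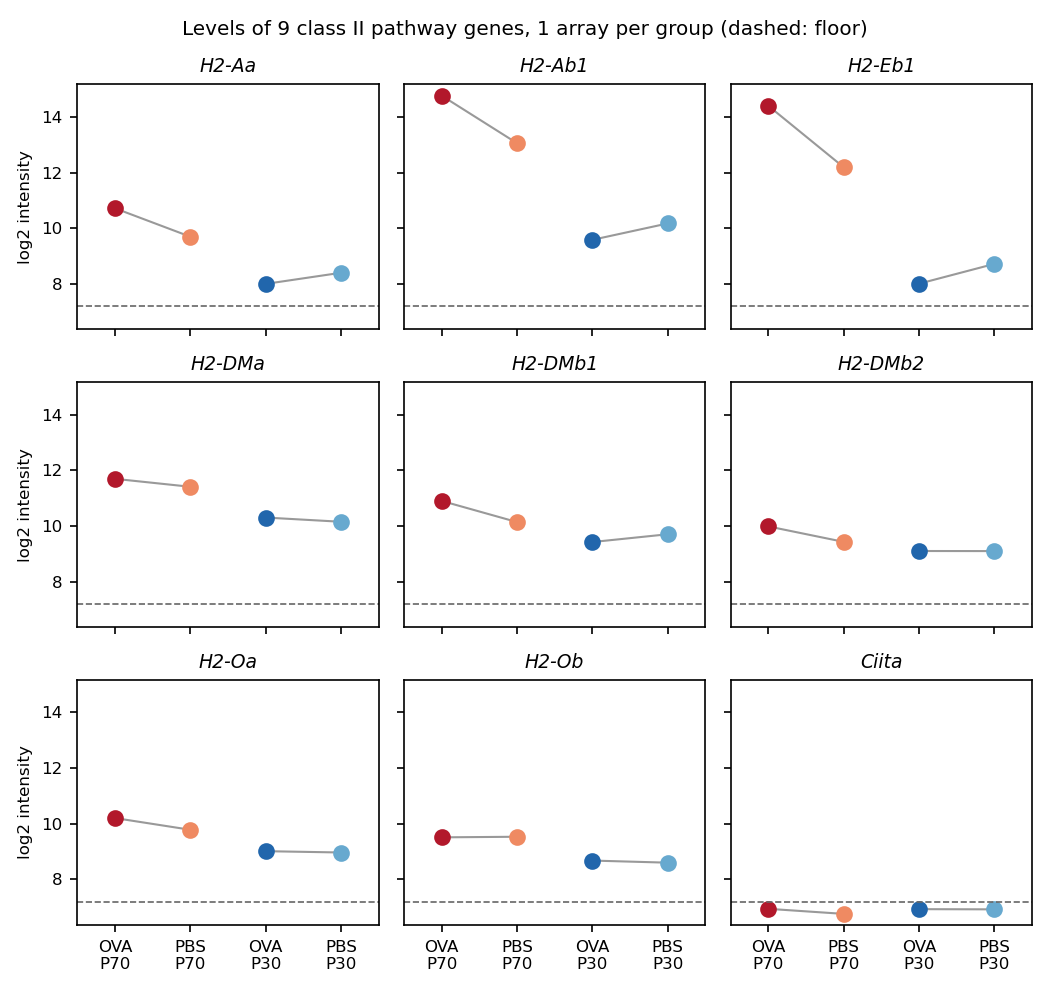
Levels (log2 intensity, vertical axis) of the 9 measured class II genes on the 4 arrays, 1 point per array, with grey lines joining the OVA and PBS arrays of 1 age and a dashed line at the floor of 7.19. H2-Aa, H2-Ab1 and H2-Eb1 are highest in OVA at P70 and lowest in OVA at P30, and Ciita lies under the floor throughout.

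The comparison of OVA with PBS at P70 addressed the older mice. The chain genes were higher in OVA: H2-Eb1 by 4.61-fold, H2-Ab1 by 3.27-fold and H2-Aa by 2.03-fold. H2-Eb1 had the second highest rank (2) of the 8742 expressed genes, H2-Ab1 rank 7 and H2-Aa rank 37. H2-DMb1 was 1.69-fold higher (rank 130). H2-DMb2 (1.47-fold), H2-Oa (1.34-fold) and H2-DMa (1.22-fold) did not reach 1.5-fold, and H2-Ob had a difference of -0.02. In all, 4 of the 8 expressed class II genes were at least 1.5-fold higher, against 3.98% of all expressed genes, and 0 were at least 1.5-fold lower, against 1.25%. Their median difference was 0.66, and that of all expressed genes was 0.09. The chain genes had a median difference of 1.71, and the 5 editor genes 0.42.

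In the younger mice, at P30, the chain genes were lower in OVA. H2-Eb1 was 1.64-fold lower, H2-Ab1 had a difference of -0.59, just past the fold that was counted, and H2-Aa was 1.32-fold lower. H2-Eb1 had rank 41, H2-Ab1 rank 76 and H2-Aa rank 289 from the lowest of the expressed genes. H2-DMb1 had a difference of -0.28. H2-DMa (0.15), H2-Ob (0.08), H2-Oa (0.05) and H2-DMb2 (0.00) were close to 0. At least 1.5-fold lower were 2 of the 8, against 0.892% of all expressed genes, and at least 1.5-fold higher were 0, against 0.652%. The median difference was -0.14 in the class II genes and -0.01 in all expressed genes. Of the 2 calls, that of H2-Ab1 did not hold after quantile normalization (-0.53) or after centring along the level (-0.54), and H2-Eb1 kept its own under each normalization, at -0.79 to -0.70.

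**Figure D2:**
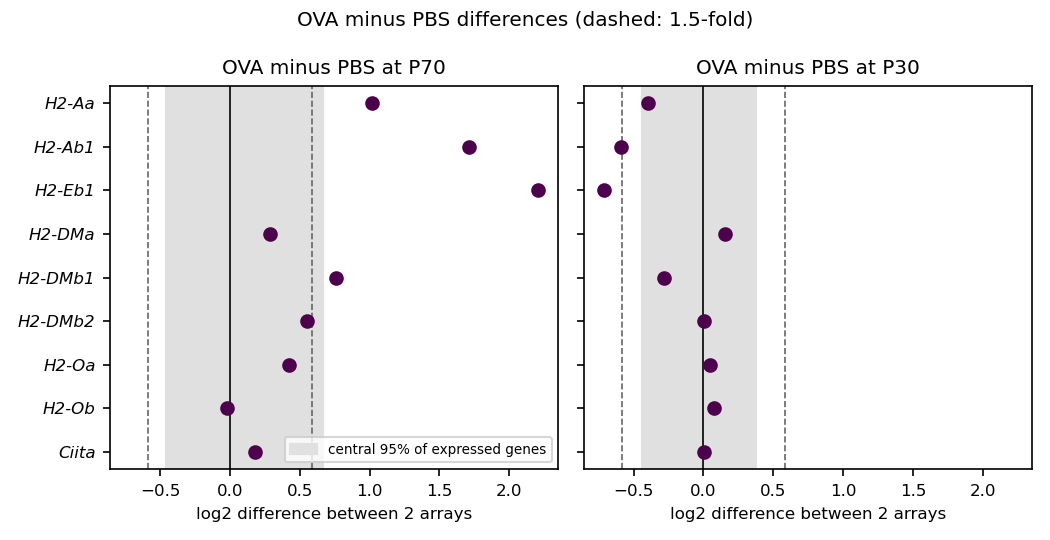
OVA minus PBS differences (log2, horizontal axis) of the 9 measured class II genes at P70 (left) and P30 (right), 1 point per gene, with the central 95% of all expressed genes in grey and dashed lines at 1.5-fold. H2-Aa (1.02), H2-Ab1 (1.71), H2-Eb1 (2.21) and H2-DMb1 (0.76) lie right of the band at P70, and H2-Eb1 (-0.71) and H2-Ab1 (-0.59) left of it at P30.

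The OVA difference at P70 minus that at P30 was 1.42 for H2-Aa, 2.30 for H2-Ab1, 2.92 for H2-Eb1 and 1.04 for H2-DMb1. It was 0.55 for H2-DMb2, 0.37 for H2-Oa, 0.13 for H2-DMa and -0.10 for H2-Ob. The median was 0.80 over the 8 genes and 0.10 over all expressed genes. With 1 array per group, these differences between ages were not tested.

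The comparison of P70 with P30 asked how the class II genes differed between the ages within a treatment. In OVA, H2-Eb1 was 83.9-fold, H2-Ab1 36.2-fold and H2-Aa 6.57-fold higher at P70. In PBS the same genes were 11.1-fold, 7.38-fold and 2.45-fold higher at P70. H2-Eb1 had rank 2 of the expressed genes in OVA and rank 11 in PBS. H2-Ab1 had rank 6 in OVA and rank 27 in PBS, and H2-Aa rank 79 in OVA and rank 652 in PBS. The editor genes were higher at P70 by 0.83 to 1.48 in OVA and by 0.33 to 1.26 in PBS. H2-DMa had a difference of 1.39 in OVA and 1.26 in PBS, and H2-Ob 0.83 in OVA and 0.93 in PBS. Ciita differed by 0.01 in OVA and by -0.16 in PBS. These comparisons share their arrays with the OVA comparisons, so they are not separate evidence.

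**Figure D3:**
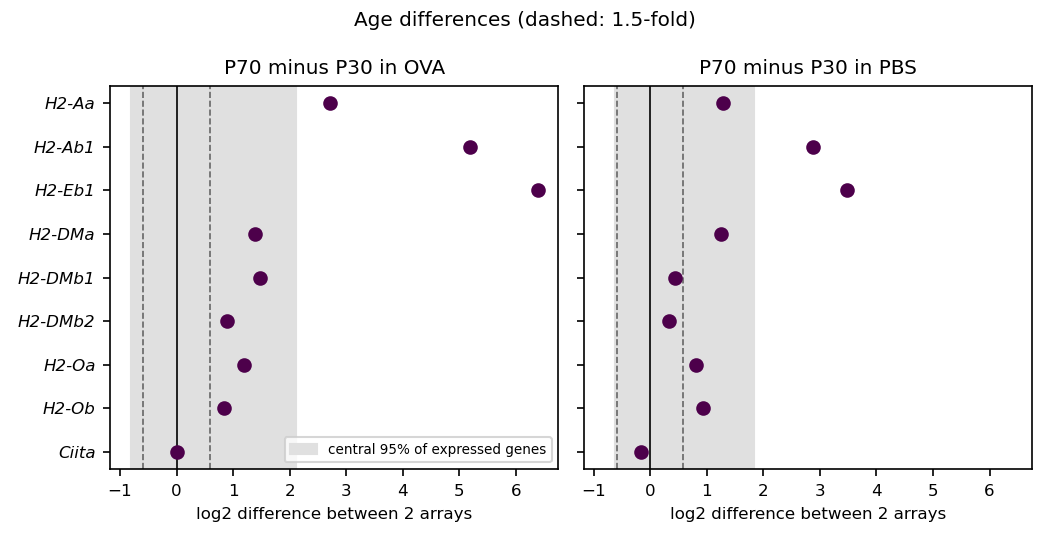
P70 minus P30 differences (log2, horizontal axis) of the 9 measured class II genes in OVA (left) and PBS (right), 1 point per gene, with the central 95% of all expressed genes in grey and dashed lines at 1.5-fold. H2-Eb1 stands at 6.39 in OVA and 3.47 in PBS, while all 5 editor genes lie inside the band in both treatments. The chain gene H2-Aa also lies inside it in PBS (1.30).

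The age counts need the background beside them. All 8 expressed class II genes were at least 1.5-fold higher at P70 in OVA, where 38.7% of all expressed genes were, and 6 of 8 in PBS, where 29.2% were. None (0) was at least 1.5-fold lower, against 4.32% in OVA and 2.91% in PBS. The class II genes had a median difference of 1.43 in OVA and 1.09 in PBS, and all expressed genes one of 0.39 in OVA and 0.26 in PBS. After centring each age difference along the level, 3 of the 8 remained past 1.5-fold in each treatment, the chain genes H2-Eb1 (5.32 in OVA, 2.74 in PBS), H2-Ab1 (4.05 in OVA, 2.0 in PBS) and H2-Aa (2.02 in OVA, 0.86 in PBS). The editor genes were then between 0.14 and 0.57 in OVA and between -0.20 and 0.49 in PBS, where H2-DMb1 (-0.20) and H2-DMb2 (-0.15) turned direction, so their age differences depend on how the arrays are scaled.

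The genes lie together on mouse chromosome 17, apart from Ciita and Cd74, and the same block holds genes of the class I pathway. RefSeq lists the measured genes there in the order H2-Oa, Brd2, H2-DMa, H2-DMb2, H2-DMb1, Psmb9, Tap1, Psmb8, Tap2, H2-Ob, H2-Ab1, H2-Aa, H2-Eb1, H2-Eb2 and H2-Ea. This block was chosen after the values were seen. The 5 interspersed genes are Brd2, a chromatin reader, the immunoproteasome subunit genes Psmb8 and Psmb9, and the peptide transporter genes Tap1 and Tap2. Their OVA minus PBS differences were between -0.02 and 0.18 at P70 and between -0.12 and 0.12 at P30. Their P70 minus P30 differences were between -0.14 and 1.33 in OVA and between 0.002 and 1.09 in PBS. The largest differences in the block fell on the 3 adjacent genes H2-Ab1, H2-Aa and H2-Eb1. The next gene, H2-Eb2, a further beta chain gene, stayed under the floor, at 6.75 in OVA and 6.49 in PBS at P70 and at 6.77 in OVA and 6.99 in PBS at P30. H2-Ea, the alpha partner of the I-E beta chain, is known to be silent in C57BL/6 mice through a promoter deletion. Its levels were 6.00 in OVA and 6.09 in PBS at P70 and 6.27 in OVA and 6.34 in PBS at P30, all under the floor, on the same arrays where the beta chain gene H2-Eb1 had the levels given above.

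**Figure D4:**
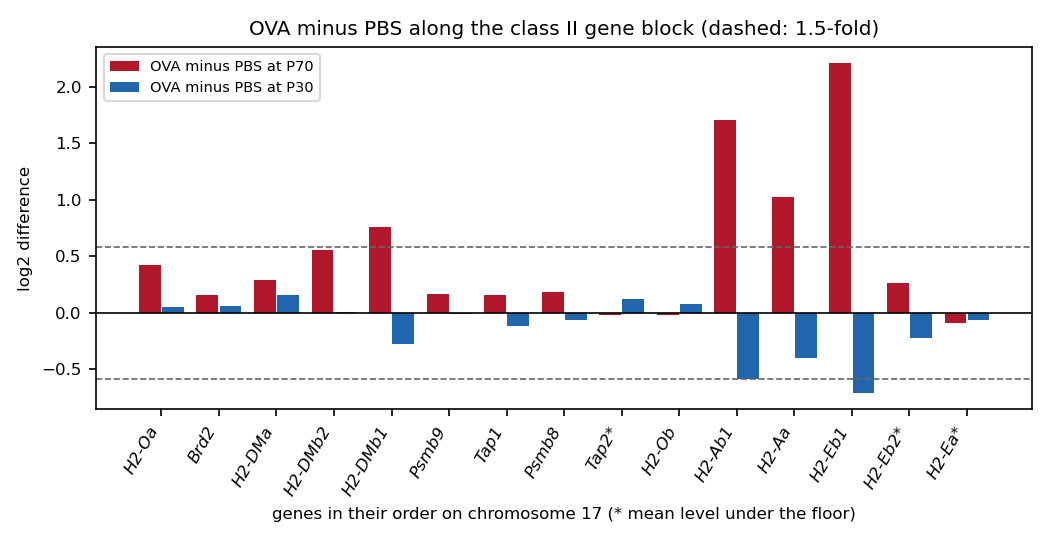
OVA minus PBS differences (log2, vertical axis) at P70 (red) and P30 (blue) for the 15 measured genes of the block in their order on the chromosome, without distances, with dashed lines at 1.5-fold. The tallest red bars stand at H2-Ab1, H2-Aa and H2-Eb1, and the interspersed class I pathway genes stay between -0.02 and 0.18 at P70.

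A class I pathway list of 15 genes was set beside the class II genes for comparison. Of its 13 expressed genes, 0 were at least 1.5-fold higher or lower in OVA at P70 or at P30. The shares of all expressed genes were 3.98% higher and 1.25% lower at P70, and 0.652% higher and 0.892% lower at P30. For 13 genes a count of 0 is near these shares. Median differences of the class I genes were 0.16 at P70 and -0.06 at P30. The chain genes H2-D1 (0.37) and H2-K1 (0.31) and the peptide trimmer gene Erap1 (0.28) had the largest differences at P70. B2m, the shared light chain of class I molecules, was at 18.12 in OVA and 18.00 in PBS at P70. Erap1 had the largest difference at P30, -0.51. Between the ages, 7 of the 13 were at least 1.5-fold higher at P70 in each treatment and 0 lower. Of all expressed genes, 38.7% were higher in OVA and 29.2% in PBS. The class I age differences had a median of 0.87 in OVA and 0.65 in PBS. They ran from -0.29 to 2.23 in OVA and from -0.15 to 2.23 in PBS. Higher levels at P70 were thus not particular to the class II genes. The difference between the class I and class II lists was not tested.

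Other genes of the class II route were described from 6 further lists. They name 54 genes, of which 49 were found and 41 expressed. In OVA at P70, 5 of the 41 were at least 1.5-fold higher, against 3.98% of all expressed genes, and at P30 1 was, against 0.652%. None (0) was lower at either age, against 1.25% of all expressed genes at P70 and 0.892% at P30. Their median difference was 0.12 at P70 and -0.08 at P30. The counts of the single lists, given next, are to be read against these same shares. In lists this small, a count of 0 or 1 says little about the list.

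Among 11 expressed genes of endosomal processing, Lamp1 (0.74), a lysosomal membrane protein, was the one past 1.5-fold at P70. The protease gene Ctsb (0.51), the invariant chain protease gene Sppl2a (0.49) and the thiol reductase gene Ifi30 (0.33) followed. Cathepsin S, which trims the invariant chain and is encoded by Ctss, was at 19.09 in OVA and 19.06 in PBS at P70, and at 18.77 in OVA and 18.38 in PBS at P30. Ifi30 had the largest negative difference of the list at P30 (-0.53) and the largest age difference, 3.05 in OVA and 2.19 in PBS. Cst3, a cathepsin inhibitor gene, was at 19.60 in OVA and 19.60 in PBS at P70, near the highest level on the arrays.

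Of the 3 genes of class II ubiquitination, Cd83, whose protein opposes the ligase MARCH1, was at 9.30 in OVA and 8.11 in PBS at P70, a difference of 1.18. At P30 it was at 7.31 in OVA and 7.46 in PBS. The ligase genes Marchf1 (0.19) and Marchf8 (0.21) differed little at P70. Thus Cd83 was the 1 gene of the 3 past 1.5-fold at P70, and 0 of the 3 were at P30. Of all expressed genes, 3.98% were higher at P70 and 0.652% at P30.

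The 9 promoter factor genes were all expressed, and 1 of them, the histone acetyltransferase gene Kat2b (0.65), was past 1.5-fold at P70. Creb1, which binds near the X box, had a difference of 0.48, and the RFX subunit genes Rfxap (0.21), Rfxank (0.03) and Rfx5 (-0.06) had smaller ones. Of the NF-Y genes, whose product binds the Y box, Nfyc had a difference of 0.10, Nfya 0.02 and Nfyb -0.04. At P30 the lowest of the 9 was Nfyc (-0.29), and 0 were past 1.5-fold.

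Interferon gamma is the main known inducer of Ciita. Of 8 expressed genes of that route, 0 were past 1.5-fold in either OVA comparison. Irf8 (0.45) and Ifngr2 (0.40) had the largest differences at P70, and Ifngr1 (-0.33) at P30. The ligand gene Ifng was under the floor on all arrays, at 5.08 in OVA and 5.11 in PBS at P70 and at 5.18 in OVA and 5.53 in PBS at P30. A further list held genes drawn up as possible negative regulators, with 3 of 5 expressed. Prdm1, a known repressor of Ciita in plasma cells, had a difference of -0.02 at both ages, and Il10ra, an interleukin-10 receptor chain, 0.39 at P70 and 0.13 at P30. Fos, an immediate early gene whose place in that list is uncertain, was the 1 gene past 1.5-fold at P30 (1.96).

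Genes of T cell contact were the last of these lists, with 7 of 10 expressed. Lag3, a receptor for class II known from T cells, was at 9.50 in OVA and 8.86 in PBS at P70. Lgals9, a galectin, was at 14.39 in OVA and 13.75 in PBS at P70, and these 2 were past 1.5-fold, each with a difference of 0.64. The costimulatory genes Cd86 (0.12) and Cd80 (-0.08) were not past it at P70, nor at P30 (-0.40 and -0.55 in that order).

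Lists of cell types were read beside the class II genes, since a brain isolate can hold other cells that make class II. Of the microglia markers, all 13 found were expressed, and 0 were past 1.5-fold in either OVA comparison. Of all expressed genes, 3.98% were higher and 1.25% lower at P70, and 0.652% higher and 0.892% lower at P30. P2ry12, a purinergic receptor gene, was at 15.65 in OVA and 15.14 in PBS at P70, and at 13.29 in OVA and 13.30 in PBS at P30. Cx3cr1, a chemokine receptor gene, moved between arrays as the highest value of each array did (0.00 at P70 and -0.14 at P30), as did Cst3, so the equal levels of these genes at P70 measure nothing about stability. Sparc had the same differences as Cx3cr1 at P30 (-0.14) and between the ages in OVA (0.19). Fcrls had the same one between the ages in PBS (0.05). The count of 0 microglia markers is therefore not read as stability. Markers of border-associated macrophages moved with the class II genes at P70. Of 12 expressed, 7 were at least 1.5-fold higher, against 3.98% of all expressed genes, and 0 lower, against 1.25%. Their median difference was 0.83, against 0.09 over all expressed genes, and the mean level over the 15 found was 8.91 in OVA and 8.14 in PBS at P70 and 7.82 in OVA and 7.93 in PBS at P30. The chemokine gene Pf4 (1.97), the membrane protein gene Ms4a7 (1.94), the lectin receptor gene Clec12a (1.42) and the endocytic adaptor gene Dab2 (1.30) had the largest differences with Cd209a (1.30), and Mrc1, the mannose receptor gene that defines these cells (9.74 in OVA and 8.68 in PBS), and Clec10a (0.59) were also past 1.5-fold. Of the other defining markers, Lyve1, Folr2 and Siglec1 were under the floor and Cd163 had a difference of 0.36. At P30, Ms4a7 (-0.58), Mrc1 (-0.46), Pf4 (-0.39) and Dab2 (-0.35) were the furthest from 0, and 0 of the 12 were past 1.5-fold, against 0.652% of all expressed genes higher and 0.892% lower. Between the ages, 8 of the 12 were at least 1.5-fold higher at P70 in OVA and 4 in PBS. The shares of all expressed genes were 38.7% in OVA and 29.2% in PBS. The median age difference of these markers was 1.18 in OVA and 0.13 in PBS. That of the class II genes was 1.43 in OVA and 1.09 in PBS. The part of these markers in the class II differences was not tested.

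Dendritic cell markers had 7 of 14 found expressed, and Flt3, Zbtb46, Xcr1 and Clec9a, which define these cells, were under the floor. The mean level over all 14 dendritic cell markers found was 8.22 in OVA and 8.06 in PBS at P70 and 7.99 in OVA and 7.94 in PBS at P30. The brightest of them, Sirpa, was at 15.82 in OVA and 15.52 in PBS at P70. Cd209a (1.30), which the border macrophage list also holds, and Itgax (0.69) were the 2 of the 7 past 1.5-fold at P70. Both were higher in OVA, against 3.98% of all expressed genes. B cell markers had 3 of 13 found expressed, with Ms4a1, Cd79a and Pax5 under the floor. The mean level over the 13 found was 7.05 in OVA and 7.02 in PBS at P70 and 7.04 in OVA and 7.05 in PBS at P30. Expressed were Bank1, Cd79b and Cd22. Bank1 was at 12.11 in OVA and 11.79 in PBS at P70, and at 10.92 in OVA and 11.06 in PBS at P30. Cd79b was at 8.43 in OVA and 8.91 in PBS at P70, a difference of -0.48. None (0) of the 3 was past 1.5-fold in either OVA comparison, against the shares of all expressed genes given above.

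Monocyte markers had 10 of 12 found expressed. Of the 10, S100a4 (1.16) and Treml4 (0.97) were at least 1.5-fold higher in OVA at P70, against 3.98% of all expressed genes. T and NK cell markers had 4 of 12 found expressed. Of the 4, 0 were past 1.5-fold in either OVA comparison, against the shares of all expressed genes given above. Of 12 expressed neutrophil markers, 2 were lower in OVA at P70, Mmp8 (-1.46) and Retnlg (-0.85), against 1.25% of all expressed genes, and 7 were lower at P30, against 0.892%, with a median difference of -1.10. With age, 8 of 10 monocyte markers in OVA and 7 of 10 in PBS were at least 1.5-fold higher at P70, and 10 of 12 neutrophil markers in each treatment, against 38.7% of all expressed genes in OVA and 29.2% in PBS. The mean neutrophil marker level was 12.20 in OVA and 12.38 in PBS at P70 and 9.38 in OVA and 10.12 in PBS at P30. These markers and the class II genes were both higher at P70, as were many genes, and the part of the markers in the age differences was not tested.

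**Figure D5:**
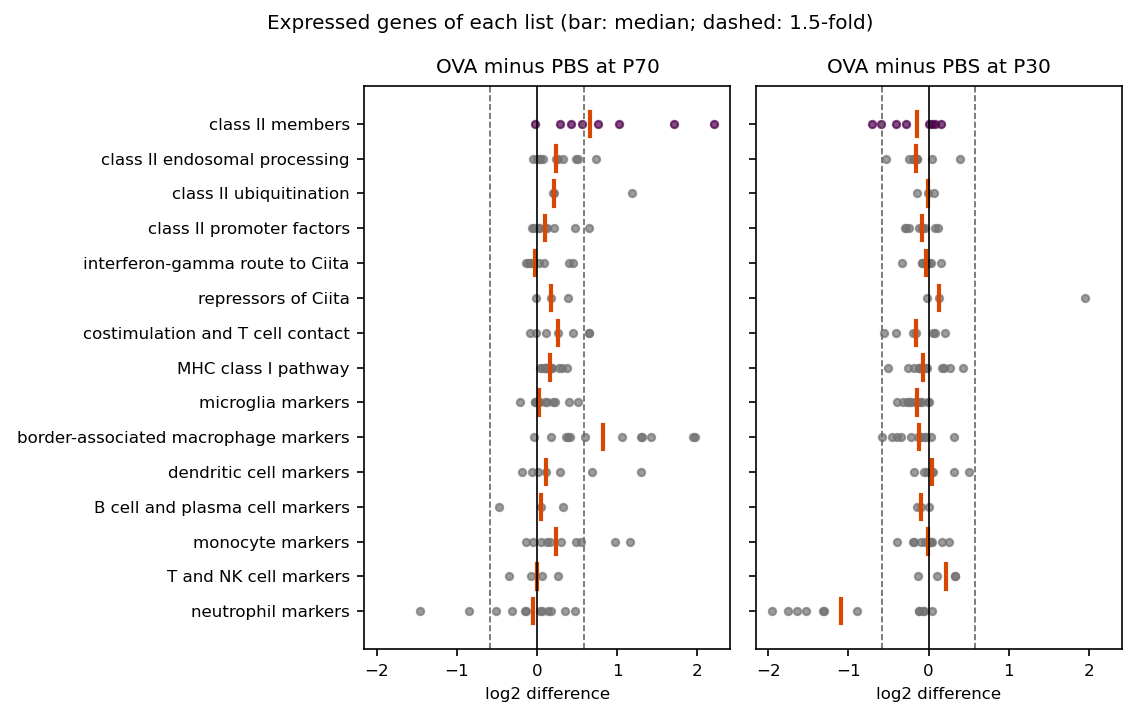
OVA minus PBS differences (log2, horizontal axis) at P70 (left) and P30 (right) of the expressed genes of each list, 1 point per gene, with an orange bar at the list's median and dashed lines at 1.5-fold. At P70 the class II genes (median 0.66) and the border-associated macrophage markers (median 0.83) reach furthest to the right, and at P30 the neutrophil markers (median -1.10) lie furthest to the left.

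The expressed genes whose pattern over the 4 arrays was nearest to the mean pattern of H2-Aa, H2-Ab1 and H2-Eb1 were Ifitm6, Lgals1, Emp3, S100a4, Lyz1, Fcgr4, Tomm7 and Rpl27. Likeness was the Euclidean distance between levels centred on each gene's own mean over these 4 arrays. It was between 0.71 for Ifitm6 and 0.93 for Rpl27. By the same measure H2-Ab1 lay at 0.38, H2-Eb1 at 1.34 and H2-Aa at 1.71. H2-Eb1 and H2-Aa thus lay further from the mean pattern than any of the genes found. Of the genes found, only Emp3 was higher in OVA at P30, by 0.25. Ifitm6 was at 10.13 in OVA and 9.48 in PBS at P70, and at 5.93 in OVA and 6.33 in PBS at P30. Fcgr4, an activating IgG receptor gene, was at 10.61 in OVA and 9.88 in PBS at P70, and at 6.93 in OVA and 7.53 in PBS at P30. The choice by pattern fixes that these genes were higher at P70. It used all 4 arrays, so it also favours OVA minus PBS differences like those of the chain genes. Their OVA differences are therefore not separate evidence. Ifitm6 and Lgals1 were under the floor on both P30 arrays, and S100a4 and Fcgr4 on the OVA array at P30, so they passed it through the P70 arrays. With 4 arrays, nearness in pattern is a description of these arrays.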

How the data were processed

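The deposited intensity values, 1 per probe set and array on a linear scale, cover 65956 probe sets on each of 4 arrays. Per the submitters' processing notes, RMA and Affymetrix Expression Console 1.4.1 were used, with no role stated for either. Scaling between the arrays was not given in the sources used here. Per the labels' protocols, RNA was extracted with TRIzol and columns, amplified with a WT Pico kit and labelled with biotin.

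From these values the log2 was taken with no further scaling. The platform annotation gave 1 symbol to 30604 probe sets, several to 2146 and none to 33206, and 827 symbols were updated through Entrez identifiers in RefSeq. For each gene the probe set with the highest mean was kept. Predicted and clone-named genes, small RNAs, olfactory and vomeronasal receptor genes and antigen receptor segments were left out by name (12881 probe sets). The floor was the median of the gene means, 7.19. Genes past 1.5-fold in either direction were counted. The counting at 1.5-fold was tested on simulated levels with known changes, which does not measure the spread between real arrays. With 1 array per group no test was run.

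The members and all gene lists were chosen with earlier results of these data known. Named genes were the members, the genes of each list with the largest differences or brightest values, and the nearest patterns. Outside that rule, Nfyb, Rfx5, Cd163, Ifng, the genes of the chromosome 17 block and the defining markers under the floor were named after their values were seen. Promoters came from RefSeq windows of GRCm38.p6. Alternatives were median centring of each array, quantile normalization, lowess centring along the level, the mean over probe sets, no filter, a stricter filter, a 2-fold threshold and a low-value limit. The probe set annotated with Cd74 and Mir5107 was added as an alternative after the data were seen.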

Additional observations from a re-analysis of the deposited data

Results flagged for a closer look

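In several class II genes the OVA minus PBS difference had opposite signs at the 2 ages. The difference at P70 minus that at P30 was 2.92 for H2-Eb1, 2.30 for H2-Ab1, 1.42 for H2-Aa and 1.04 for H2-DMb1, each higher in OVA at P70 and lower in OVA at P30. It was -0.10 for H2-Ob, whose own differences were -0.02 at P70 and 0.08 at P30. With 1 array per group, none of these 5 differences was tested.

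The probe set annotated with both Cd74 and Mir5107 lies outside the main measurement, since its signal cannot be assigned to either gene. It was at 15.67 in OVA and 13.88 in PBS at P70, a difference of 1.79, and at 7.40 in OVA and 8.78 in PBS at P30, a difference of -1.39. The difference between the ages was 8.27 in OVA and 5.09 in PBS. The level of 7.40 in OVA at P30 is near the floor of 7.19. The sizes of the P30 difference and of the age difference in OVA are therefore uncertain.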

How the results depend on the processing

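No paired analysis was possible because each group has 1 array, and no replicate could be left out for the same reason. In OVA at P70, the chain genes H2-Eb1, H2-Ab1 and H2-Aa stayed past 1.5-fold under every normalization, at 2.02, 1.52 and 0.86 under lowess centring, where the median of the 8 class II genes was 0.49. With no filter on dim genes that median was 0.55, the median at P30 was 0.003 in place of -0.14, and the median of the OVA difference at P70 minus that at P30 was 0.55. At P30 the count of lower genes was 1 after quantile normalization and 1 under lowess centring, since H2-Ab1 was then at -0.53 and -0.54, and 0 at a 2-fold threshold. Of the 8742 expressed genes, 86 were lower at P30 after quantile normalization and 70 under lowess centring. Lowess centring left 3 genes higher at P70 in OVA (median 0.50) and 3 in PBS (median 0.48). It also turned the age medians of other lists below 0. These were endosomal processing (-0.052 in OVA, -0.24 in PBS), promoter factors (-0.059 in OVA, -0.043 in PBS), the interferon gamma route (-0.18 in OVA, -0.075 in PBS), the possible negative regulators (-0.45 in OVA, -0.44 in PBS), T cell contact (-0.034 in OVA, -0.18 in PBS) and microglia markers (-0.36 in OVA, -0.52 in PBS). In PBS alone it turned ubiquitination (-0.024), border macrophage markers (-0.049), dendritic cell markers (-0.15) and B cell markers (-0.049). The cause was not tested.

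Scaling moved the share of higher genes among all genes past 1.5-fold. In OVA at P70 it was 76.1% as deposited, 88.7% after median centring, 87.8% after quantile normalization and 50.4% under lowess centring. For age it was 90.0% as deposited and 54.8% under lowess centring in OVA, and 91.0% as deposited and 56.9% under lowess centring in PBS. The median over all probe sets shifted by -0.34 between ages in OVA and by -0.24 in PBS. With the probe set of Cd74 and Mir5107, 5 genes were higher in OVA at P70 and 3 lower at P30. The shares of all expressed genes were 3.98% higher at P70 and 0.892% lower at P30. Low signal limits Ciita, which lay under the floor.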
